A study of Mus musculus with 2343 samples.

Results

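Bulk RNA of reporter-positive, Eed-targeted medullary thymic epithelial cells was compared with that of wild-type medullary cells. The members are the bulk mTEChi columns of the combined count table: 4 libraries of ZsGreen-positive cells (ZsGpos) and 9 of WT cells, or 13 of the 2343 samples of the series. The WT titles carry a number (01 to 03) and an R number (R01 to R03), and the 3 libraries of each number were summed, so that 4 ZsGpos libraries stood against 3 WT units. ZsGpos cells came from mice of strain Eedflfl::ZsGreen::beta5tCre, with floxed Eed, a ZsGreen reporter and a Cre driven by beta5t, and were sorted as ZsGreen positive. WT cells came from Eedflfl::ZsGreen mice, which carry the same floxed Eed and the reporter but no Cre, so "WT" here means undeleted and not free of engineered alleles. A further 4 libraries of ZsGreen-negative cells of the Cre strain (ZsGneg) entered the fit to share the estimate of spread. Each library was made from about 1000 sorted cells with the SMART-seq2 protocol, which copies polyadenylated RNA into full-length cDNA. The labels give no age and no treatment, and the labels do not say whether each library is from its own animal. The p-values therefore measure the spread between these samples only.

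Eed is a core subunit of Polycomb repressive complex 2 (PRC2), which places methyl groups on lysine 27 of histone H3 and holds developmental genes silent. Beta5t is a proteasome subunit of cortical thymic epithelial cells, encoded by Psmb11, and its promoter is also active in the progenitors from which medullary cells arise. Medullary cells with high MHC class II, here called mTEChi, transcribe genes of many peripheral tissues under Aire and Fezf2 and display the products to developing T cells. Immediate early genes such as Fos and Jun are transcribed within minutes of a stimulus.

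The ZsGpos libraries held 10519116 to 12791664 gene counts and the summed WT units 35197445 to 43344149, from single libraries of 10995882 to 14990893. Of the gene counts, mitochondrial genes took 9.15 to 14.9% in ZsGpos and 7.23 to 7.74% in WT, and the 18S rRNA-like row Rn18s-rs5 took 1.26 to 2.78% in ZsGpos and 0.589 to 0.689% in WT. Of all listed reads, those outside genes were 31.2 to 35.9% in ZsGpos and 25.9 to 32.3% in WT. Mitochondrial and 18S shares did not overlap between the groups (two-sided exact permutation p = 0.0571 for each, where the smallest value that 4 against 3 allows is 0.0286), whereas the shares outside genes did (p = 0.0857). Read from Xist and Y-linked genes, ZsGpos 01 to 03 were male and 04 female, while WT 01 and 02 were female and WT 03 male. Numbers 01 and 02 therefore do not mark the same animals in ZsGpos and WT. ZsGneg matched ZsGpos in sex at all 4 numbers, and the labels do not say whether the 2 sorts of a number share an animal. The fit treats them as separate units. Eed itself had 53.9, 19.2, 90.1 and 16.7 CPM in ZsGpos and 52.1, 30.2 and 47 CPM in WT (CPM, gene counts scaled to a common library size after TMM scaling), with overlapping groups (log2 0.06, SE 0.56, adjusted p = 1). A count over the whole gene does not tell the floxed exons from those left in place. In single cells summed by plate, Eed was lower in ZsGpos on each of 3 plates, with values given below. The epithelial gene Epcam, the class II gene H2-Aa and Aire were present in all 7 units, at no less than 431.3, 3345 and 178.3 CPM.

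Of 18931 genes tested, 72 were called at an adjusted p below 0.05 (0.38%), 24 higher (0.127%) and 48 lower (0.254%) in ZsGpos. Log2 fold changes of the called genes ran from 1.07 to 4.05 for the higher and from -0.79 to -10.64 for the lower genes, with medians of 2.45 and -1.53. All 24 higher genes and 46 of the 48 lower genes had units that did not overlap between the groups. Over all tested genes the units did not overlap in 4.78% (higher) and 11.1% (lower), and 9061 had a positive and 9869 a negative log2 fold change. These values and the shares called, 0.127% higher and 0.254% lower, are the background for the list counts below. When the 9 WT libraries were taken singly, each of the 24 higher genes had all 9 below every ZsGpos library, and 40 of the 48 lower genes had all 9 above. The share of all genes separated in this way was not computed. Because the genes were called from these same libraries, their separation describes the calls and is no further evidence for them.

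The number of calls depended on the units and on 2 library properties. It fell to 9 without WT 02, to 13 without WT 03, to 34 without WT 01, to 39 without ZsGpos 04, to 46 without ZsGpos 01 and to 47 without ZsGpos 02. Calls of 9 genes were kept whichever of the 11 units was left out: Fos, Krt5, Egr1, Cd52, Skint2, Hspb11, Ubd, Lgals2 and Tmsb4x. With a covariate for the outside-gene share of reads 7 calls were made, all among the 72: Fos, Krt5, Egr1, Igf1, Cd52, Skint2 and Hspb11. With the mitochondrial share as a covariate 2 were made, Fos and Cd52. These shares differ with the groups, and their part in the results cannot be told apart from that of the genotype. Sex as a covariate, an alternative added after seeing the data, gave 62 calls, of which 55 were among the 72.

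**Figure D1:**
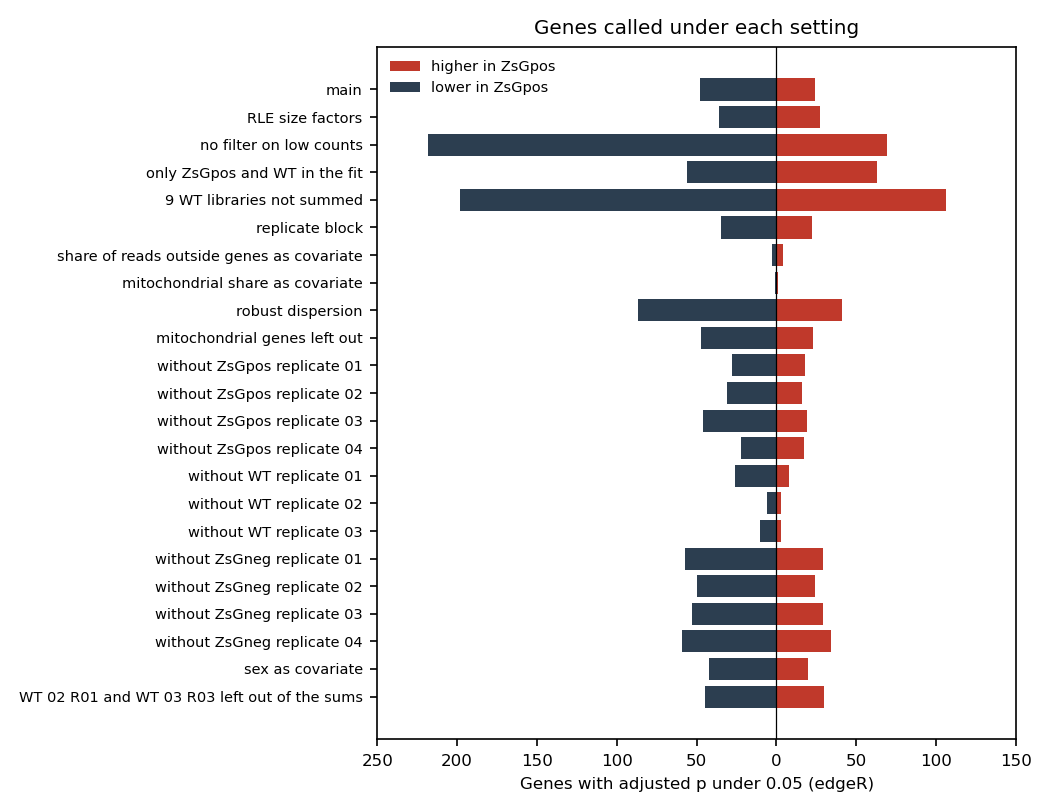
Number of genes with an adjusted p below 0.05 in edgeR under each setting, higher in ZsGpos to the right and lower to the left of 0. The counts shrink most with the mitochondrial share (2) or the share outside genes (7) as covariate and without WT 02 (9) or WT 03 (13). DESeq2, with 674 calls, is not drawn.

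Immediate early genes gave 7 of the 24 higher calls. Of 41 tested members of the list 7 were called, all higher, namely Fos, Egr1, Jun, Dusp1, Btg2, Klf4 and Zfp36l1. In all, 38 of the 41 had a positive log2 fold change and 22 had units that did not overlap upward, against 4.78% of all genes, and the list's median was 1.61 against -0.05 over all genes tested. The 250 bases before the annotated start of 4 of these genes are shown because the genes moved together (RefSeq, GRCm38.p6, each 5′ to 3′ on the gene's strand). Capitals mark a full cAMP response element, TGACGTCA.
Fos, chr12:85473640-85473889, plus strand: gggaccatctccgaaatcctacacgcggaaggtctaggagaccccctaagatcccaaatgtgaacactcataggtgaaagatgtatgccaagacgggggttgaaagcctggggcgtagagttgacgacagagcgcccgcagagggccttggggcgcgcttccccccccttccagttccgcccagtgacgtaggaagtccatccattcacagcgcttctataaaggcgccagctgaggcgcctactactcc
Jun, chr4:95052223-95052472, minus strand: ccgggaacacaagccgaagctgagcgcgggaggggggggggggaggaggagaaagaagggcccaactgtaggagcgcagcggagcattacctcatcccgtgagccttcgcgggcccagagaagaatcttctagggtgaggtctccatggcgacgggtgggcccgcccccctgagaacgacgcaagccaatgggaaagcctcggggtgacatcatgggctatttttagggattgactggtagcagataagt
Dusp1, chr17:26508473-26508722, minus strand: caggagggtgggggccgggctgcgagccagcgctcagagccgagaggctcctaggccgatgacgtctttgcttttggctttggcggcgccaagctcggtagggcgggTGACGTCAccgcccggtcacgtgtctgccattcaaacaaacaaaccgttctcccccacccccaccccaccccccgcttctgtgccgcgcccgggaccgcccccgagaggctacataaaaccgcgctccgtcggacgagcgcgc
Btg2, chr1:134079156-134079405, minus strand: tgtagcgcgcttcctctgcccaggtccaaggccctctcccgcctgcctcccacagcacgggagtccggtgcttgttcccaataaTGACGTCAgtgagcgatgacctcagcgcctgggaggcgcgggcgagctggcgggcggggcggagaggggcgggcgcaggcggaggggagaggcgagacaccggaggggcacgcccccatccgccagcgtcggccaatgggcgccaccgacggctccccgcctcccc
The element lies in the windows of Dusp1 and Btg2, and these letters are not in the windows of Fos and Jun. Of the called genes with a promoter in the table, 2 of 14 higher and 1 of 35 lower genes hold it, the last being H2-Aa. It occurs in 1.62% of 27025 promoters of this length, searched on both strands. Neither the AP-1 site TGACTCA (4.43% of promoters) nor a CArG box (1.4%) was found in any of the 14 promoters of higher genes or the 35 of lower genes that the table holds. The 14 promoters of higher genes had a median of 15 CpG pairs, those of the 35 lower genes 7, and all promoters 6. A match or its absence is a description of these letters only.

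Fos, which pairs with Jun in the AP-1 factor (chromosome 12, 85473890 to 85477274, GRCm38), had 413.8, 633, 750.3 and 907 CPM in the ZsGpos libraries and 49.6, 48.3 and 24.3 CPM in the WT units. Every ZsGpos library lay above every WT unit, a difference of 16.6-fold (log2 4.05, SE 0.348, adjusted p = 0.000297). Jun (chromosome 4, 95049036 to 95052222) had 562.5, 530.9, 634 and 554.8 CPM in the ZsGpos libraries and 119.8, 54.7 and 63.3 CPM in the WT units. ZsGpos libraries were close to each other and far above the WT unit with most Jun (log2 2.85, SE 0.391, adjusted p = 0.0071). Dusp1, a phosphatase that switches off MAP kinases (chromosome 17, 26505591 to 26508472), had 182.2, 203.5, 206.4 and 200.5 CPM in the ZsGpos libraries and 25.4, 14.2 and 11.8 CPM in the WT units. The ZsGpos values were again tightly grouped, and the means differed 11.6-fold (log2 3.53, SE 0.473, adjusted p = 0.00695). Btg2, an antiproliferative p53 and growth factor target, had 151.7, 285.8, 252.02 and 234.7 CPM in the ZsGpos libraries and 39.4, 46.5 and 16.2 CPM in the WT units (log2 2.76, adjusted p = 0.0272). Klf4, a zinc finger factor of differentiating epithelia, had 163.5, 264.02, 412.7 and 230.9 CPM in the ZsGpos libraries and 56.2, 51.6 and 57.4 CPM in the WT units (log2 2.28, adjusted p = 0.0111). Zfp36l1 binds AU-rich elements and promotes decay of messenger RNA, and its levels were 94.9, 154.1, 171.8 and 65.5 CPM in the ZsGpos libraries and 21.1, 15.7 and 22.2 CPM in the WT units (log2 2.63, adjusted p = 0.0183). The last 2 varied most within ZsGpos, without reaching the WT units. Egr1, a zinc finger factor, had 225.6, 454.5, 494.7 and 475.9 CPM in the ZsGpos libraries and 71.3, 48.5 and 45.1 CPM in the WT units, and ZsGpos 01 was the low library (log2 2.91, adjusted p = 0.00132). Dusp1 and Jun each lost their call without WT 02 or WT 03 (adjusted p = 0.0556 to 0.0642). Klf4 lost its call without WT 01, WT 02 or WT 03 (adjusted p = 0.0519 to 0.0946). Zfp36l1 lost its call without ZsGpos 02, WT 01, WT 02 or WT 03 (adjusted p = 0.0594 to 0.153). Btg2 lost its call without any 1 ZsGpos or WT unit other than ZsGpos 01 (adjusted p = 0.0564 to 0.162). Fosb, uncalled, had 41.3, 174.3, 83.2 and 56.3 CPM in the ZsGpos libraries and 4.4, 6.64 and 0.257 CPM in the WT units (log2 4.56, adjusted p = 0.0625).

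Heat shock genes were represented by the gene pair Hspa1a and Hspa1b. Their sequences are nearly identical, so reads may be split between them and both count as 1 result. Hspa1b had 312.1, 220.8, 573.97 and 321.9 CPM in the ZsGpos libraries and 87.2, 50.8 and 37 CPM in the WT units, and Hspa1a 240.6, 444.1, 799 and 530.05 CPM in the ZsGpos libraries and 167.3, 77 and 84.7 CPM in the WT units. Both were highest in ZsGpos 03, and no ZsGpos library reached down to WT (log2 2.61, adjusted p = 0.0174 and log2 2.2, adjusted p = 0.028). Hspa1b lost its call without WT 02 or WT 03 (adjusted p = 0.134 to 0.137). Hspa1a lost its call without any 1 ZsGpos or WT unit other than ZsGpos 01 and WT 01 (adjusted p = 0.0594 to 0.211). The other tested chaperones of the list were not called, and the median of the 18 was 0.29. Dnajb1, their cochaperone, had 92.9, 92.2, 112.5 and 108.8 CPM in the ZsGpos libraries and 32.2, 12.4 and 15.7 CPM in the WT units without a call (log2 2.34, adjusted p = 0.242). The promoter of Hspa1b is shown for its heat shock element, GAANNTTC, and its CCAAT box 67 bases before the start, both in capitals. These occur in 6.78 and 34.5% of promoters, the first in 4 of 14 higher and 2 of 35 lower genes and the second in 6 and 13. The counts of higher genes include both Hspa1a and Hspa1b, whose matches lie at the same positions. The window of Hspa1b also holds the Y box core CTGATTGG.
Hspa1b, chr17:34959239-34959488, minus strand: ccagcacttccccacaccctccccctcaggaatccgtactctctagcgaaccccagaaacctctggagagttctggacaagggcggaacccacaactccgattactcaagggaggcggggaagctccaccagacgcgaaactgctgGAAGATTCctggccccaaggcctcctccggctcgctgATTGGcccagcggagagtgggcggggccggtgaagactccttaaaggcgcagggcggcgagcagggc

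The basal keratins Krt5 and Krt14 and the surface marker Ly6a were higher. Of 23 tested genes of the basal and mTEC-low list these 3 were called, 21 had a positive log2 fold change, 15 had units that did not overlap upward (4.78% of all genes did), and the median was 1.37. Krt5, the type II keratin of basal cells (chromosome 15, 101707069 to 101712905), had 898, 778, 811 and 663 CPM in the ZsGpos libraries and 134.6, 106.9 and 131.7 CPM in the WT units (log2 2.66, SE 0.263, adjusted p = 0.000872). Its type I partner Krt14 (chromosome 11, 100203162 to 100207510) had 376.95, 303.4, 291.4 and 270.9 CPM in the ZsGpos libraries and 107.6, 101.04 and 121.9 CPM in the WT units, a smaller step of 2.82-fold (log2 1.5, SE 0.237, adjusted p = 0.0157). Ly6a, the surface protein Sca-1, had 427.6, 532.7, 632 and 375.96 CPM in the ZsGpos libraries and 185.8, 184.8 and 187.1 CPM in the WT units, and the WT units were nearly equal (log2 1.4, adjusted p = 0.0173). The long non-coding RNA 4631405K08Rik, which RefSeq lists as Mir205hg, the host of a microRNA of basal epithelia, had 142.02, 257.9, 165.4 and 173.1 CPM in the ZsGpos libraries and 30.7, 14 and 41.7 CPM in the WT units (log2 2.68, adjusted p = 0.0172). Clu, a secreted chaperone, had 785, 802, 919 and 695 CPM in the ZsGpos libraries and 374.2, 332.9 and 315.5 CPM in the WT units, which is 2.35-fold (log2 1.23, SE 0.172, adjusted p = 0.0071). Ccl21c, a near-identical copy of the chemokine gene Ccl21a whose reads cannot be separated from it with certainty, had 99.1, 76, 93.8 and 58 CPM in the ZsGpos libraries and 10.5, 9.46 and 13.4 CPM in the WT units (log2 2.88, adjusted p = 0.0349). Ccl21a itself was uncalled at 12.3, 21, 5.02 and 4.46 CPM in the ZsGpos libraries and 1.5, 0.877 and 1.52 CPM in the WT units (log2 3.04, adjusted p = 0.555). Krt14, 4631405K08Rik and Ly6a each lost their call without WT 01, WT 02 or WT 03 (adjusted p = 0.0556 to 0.13). Clu lost its call without WT 02 or WT 03 (adjusted p = 0.0642 to 0.0715). Ccl21c lost its call without any 1 ZsGpos or WT unit (adjusted p = 0.0624 to 0.208). Trp63, the basal transcription factor, was not called (173.5 ± 28.1 against 119.96 ± 30.2 CPM, SD, log2 0.53, adjusted p = 0.991).

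Other higher genes encode secreted factors, a receptor, a transcription factor and a microtubule regulator. Igf1, a growth factor (chromosome 10, 87858265 to 87937047), had 943, 866, 850.4 and 884 CPM in the ZsGpos libraries and 228.9, 317.3 and 308.6 CPM in the WT units, tight within ZsGpos (log2 1.64, SE 0.251, adjusted p = 0.0134). Lifr, the receptor of leukaemia inhibitory factor, had 249.1, 165.8, 222.8 and 170.9 CPM in the ZsGpos libraries and 48.5, 36.2 and 50.02 CPM in the WT units (log2 2.17, adjusted p = 0.0233). Twsg1 and Fstl1 encode secreted proteins that bind or modulate BMP ligands. The first had 207.1, 152.02, 140.2 and 201.2 CPM in the ZsGpos libraries and 55.4, 55.7 and 57.4 CPM in the WT units (log2 1.64, adjusted p = 0.0278), and the second 180.1, 138.6, 166.3 and 118.5 CPM in the ZsGpos libraries and 51.6, 63.5 and 45.5 CPM in the WT units (log2 1.49, adjusted p = 0.041). Mgp, an inhibitor of calcification made by mesenchymal and some epithelial cells, had 93.6, 157.5, 154.8 and 53.4 CPM in the ZsGpos libraries and 15, 4.89 and 9.77 CPM in the WT units (log2 3.54, adjusted p = 0.028). Hes1, a transcriptional target of Notch, had 124.5, 140.6, 242.5 and 239.3 CPM in the ZsGpos libraries and 53.6, 32.2 and 42.7 CPM in the WT units (log2 2.12, adjusted p = 0.0195). Stmn2, which encodes a neuronal regulator of microtubules, had 111.6, 138.1, 140.4 and 113.3 CPM in the ZsGpos libraries and 9.14, 9.75 and 9.7 CPM in the WT units, close within each group (log2 3.72, adjusted p = 0.0254). Igf1 lost its call without WT 01, WT 02 or WT 03 (adjusted p = 0.0688 to 0.073). Lifr lost its call without ZsGpos 01, WT 01, WT 02 or WT 03 (adjusted p = 0.0619 to 0.17). Twsg1 lost its call without any 1 ZsGpos or WT unit other than ZsGpos 03 (adjusted p = 0.0549 to 0.2). Fstl1 lost its call without any 1 ZsGpos or WT unit, or without ZsGneg 02 (adjusted p = 0.053 to 0.289). Mgp lost its call without any 1 ZsGpos or WT unit other than ZsGpos 04 (adjusted p = 0.0617 to 0.196). Hes1 lost its call without ZsGpos 04, WT 01, WT 02 or WT 03 (adjusted p = 0.0624 to 0.167). Stmn2 lost its call without any 1 ZsGpos or WT unit (adjusted p = 0.0564 to 0.178). Summed fibroblast markers (11 of 12 tested, 8 positive, none called) came to 439.3 to 601 CPM in ZsGpos and 250.03 to 360.95 in WT, without overlap. Col1a2 was uneven, at 16.8, 19.9, 9.85 and 107.6 CPM in ZsGpos, and no listed fibroblast marker was at 0 in all 7 units. Their part in the levels of Mgp, Fstl1 and Igf1 was not tested. In bulk libraries, a larger share of cells that express a gene and more RNA per cell cannot be told apart.

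Ribosomal RNA rows were higher as well. Rn18s-rs5, annotated as a pseudogene of 18S RNA, had 25679, 20701, 13209.9 and 27128 CPM in the ZsGpos libraries and 5956, 6159 and 6977 CPM in the WT units (log2 1.77, adjusted p = 0.0111), and mt-Rnr2, the large mitochondrial rRNA, 44622, 63809, 88186 and 73884 CPM in the ZsGpos libraries and 34582, 31696 and 30373 CPM in the WT units (log2 1.07, adjusted p = 0.0174). Both are abundant RNAs in a library made from polyadenylated RNA, and both may collect reads of other copies. Rn18s-rs5 lost its call without WT 01, WT 02 or WT 03 (adjusted p = 0.0519 to 0.079). mt-Rnr2 lost its call without ZsGpos 04, WT 01, WT 02 or WT 03 (adjusted p = 0.0519 to 0.123). Of the gene counts, mitochondrial rRNA took 7.34 to 12.9% in ZsGpos and 4.97 to 5.7% in WT, whereas all other mitochondrial genes together took 1.41 to 1.97% in ZsGpos and 2.04 to 2.26% in WT. The larger mitochondrial share of ZsGpos was thus a share of rRNA. The remaining mitochondrial genes had a smaller share than in the summed WT units, without overlap (exact permutation p = 0.0571). Those sums include WT 02 R01 and WT 03 R03, where all mitochondrial genes took 8.57 and 8.03% of gene counts. The other libraries of these numbers had 6.5 to 7.1%. The smaller share was not tested with WT 02 R01 and WT 03 R03 left out. Of 17 tested mitochondrial genes, rRNA included, 8 had a positive and 9 a negative log2 fold change.

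**Figure D2:**
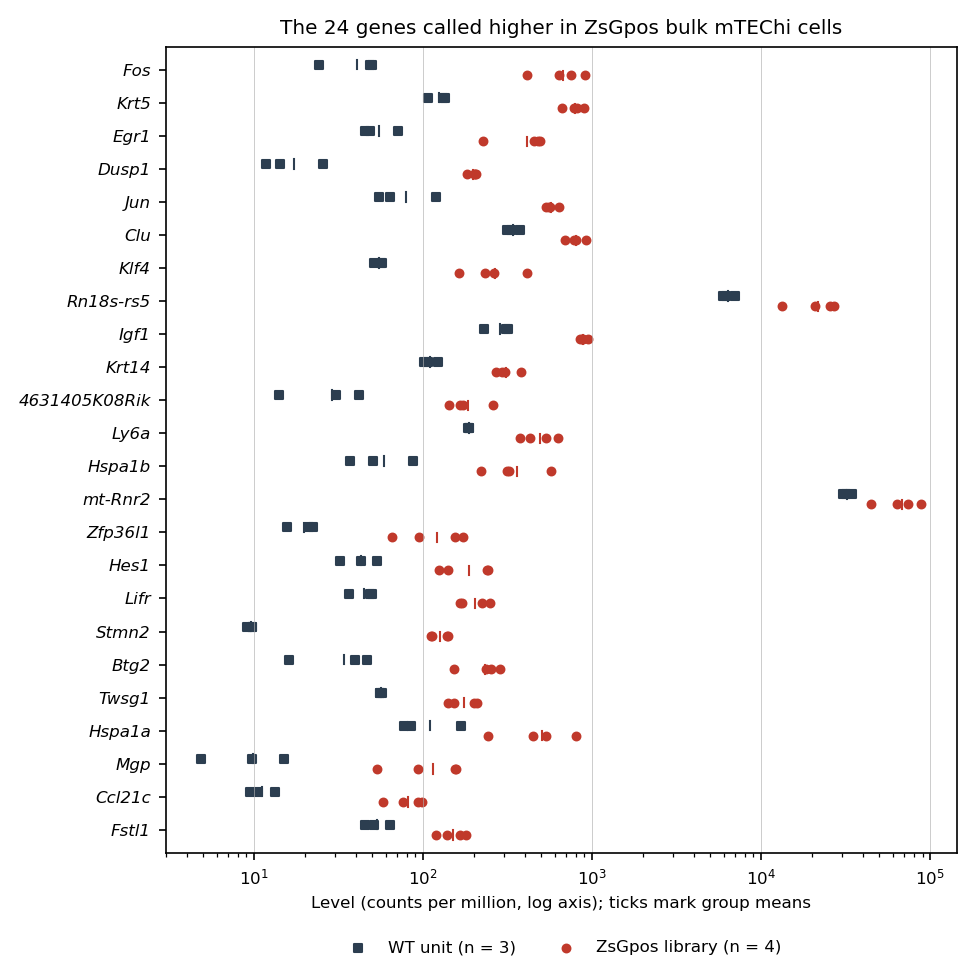
Level of each of the 24 higher genes in the 3 WT units (squares) and 4 ZsGpos libraries (circles), in CPM on a log axis, with ticks at the group means. No WT unit overlaps a ZsGpos library for any gene, and the ratio of group means is largest for Fos (16.6-fold).

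Cd52, Skint2, Ubd, H2-Aa, Srgn and AW112010 were lower. Of these 6 H2-Aa alone belongs to a list. Cd52, a short glycosylphosphatidylinositol-anchored peptide of lymphocytes and some epithelia (chromosome 4, 134093538 to 134095073), had 159.5, 155.4, 277.5 and 122.4 CPM in the ZsGpos libraries and 1244, 1009.9 and 1165 CPM in the WT units. ZsGpos 03 was the highest of its group and still far below each WT unit, and the group mean was 6.38-fold lower (log2 -2.67, SE 0.277, adjusted p = 0.00103). Skint2, of a family of immunoglobulin-like proteins of thymus and skin epithelium (chromosome 4, 112613598 to 112652248), had 79.7, 68.4, 47.8 and 35.2 CPM in the ZsGpos libraries and 385.6, 403.3 and 289.5 CPM in the WT units (log2 -2.64, SE 0.299, adjusted p = 0.00182). Ubd, a ubiquitin-like modifier also named FAT10 (chromosome 17, 37193892 to 37196101), had 3064, 2796, 3066 and 2824 CPM in the ZsGpos libraries and 6411, 6600.2 and 7016 CPM in the WT units, 2.27-fold lower with little spread in either group (log2 -1.18, SE 0.141, adjusted p = 0.00222). H2-Aa encodes the alpha chain of class II molecules (chromosome 17, 34282744 to 34287823) and had 3359.6, 3345, 3611 and 3487 CPM in the ZsGpos libraries and 5592, 6719 and 6701 CPM in the WT units (log2 -0.88, SE 0.128, adjusted p = 0.0101). Its promoter is shown with the Y box core CTGATTGG, the conserved element of class II promoters, in capitals, 51 bases before the start (4.07% of promoters hold these letters). A CCAAT box on the other strand lies within it. The same core is in 2 of 14 promoters of higher genes (the near-identical pair Hspa1a and Hspa1b) and 3 of 35 of lower genes (H2-Aa, Ndufb11 and Ppib). The H2-Aa window also holds a heat shock element, 58 bases before the start, and a cAMP response element at 74. Both are left in lower case, except that the heat shock element ends on the capital that opens the Y box core.
H2-Aa, chr17:34287824-34288073, minus strand: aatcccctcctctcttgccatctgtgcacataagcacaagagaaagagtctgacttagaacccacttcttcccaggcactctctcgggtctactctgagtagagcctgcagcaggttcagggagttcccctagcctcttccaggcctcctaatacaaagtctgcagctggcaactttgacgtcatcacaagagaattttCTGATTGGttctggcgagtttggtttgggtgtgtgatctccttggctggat
Of the 14 class II presentation genes tested 1 was called, 12 had a negative log2 fold change and 9 had units that did not overlap downward (11.1% of all genes did), with a median of -0.6. Cd74, the invariant chain, had 11196, 11066, 9877 and 9762 CPM in the ZsGpos libraries and 14812, 20518 and 19135 CPM in the WT units without a call (log2 -0.79, adjusted p = 0.0768), and Ciita, the class II coactivator, 130.9, 126.4, 96.4 and 125.8 CPM in the ZsGpos libraries and 82.8, 119.3 and 133.3 CPM in the WT units with overlap (log2 0.1, adjusted p = 1). Srgn, a granule proteoglycan, had 1814, 1342, 1729 and 1769 CPM in the ZsGpos libraries and 2568, 2889 and 3154 CPM in the WT units (log2 -0.79, adjusted p = 0.0338), and the long non-coding RNA AW112010 128.5, 287.9, 313.4 and 255.7 CPM in the ZsGpos libraries and 674, 742 and 793 CPM in the WT units (log2 -1.58, adjusted p = 0.0166). H2-Aa lost its call without WT 02 or WT 03 (adjusted p = 0.0556 to 0.0642). Srgn lost its call without any 1 ZsGpos or WT unit, or without ZsGneg 03 (adjusted p = 0.0505 to 0.196). AW112010 lost its call without ZsGpos 04, WT 02 or WT 03 (adjusted p = 0.0519 to 0.0889). With RLE size factors the call of Srgn was lost as well (adjusted p = 0.0774).

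The actin regulators Tmsb4x and Actr2 were lower too, as were 5 other genes. Tmsb4x, thymosin beta 4, which binds actin monomers (chromosome X, 167207093 to 167213479), had 1872, 2007, 2482 and 1946 CPM in the ZsGpos libraries and 4187, 3967 and 5435 CPM in the WT units (log2 -1.12, SE 0.157, adjusted p = 0.0071). Actr2, an actin-related subunit of the complex that branches filaments (chromosome 11, 20062304 to 20112951), had 749, 714, 635 and 657 CPM in the ZsGpos libraries and 1438, 1695 and 1519 CPM in the WT units (log2 -1.17, SE 0.164, adjusted p = 0.0071). Of 19 tested genes of actin dynamics, a family assembled after values were seen, these 2 were called, 11 had a negative and 8 a positive log2 fold change, with a median of -0.27. Nostrin, which binds endothelial nitric oxide synthase and acts in endocytosis (chromosome 2, 69135800 to 69189330), had 58.8, 38.5, 29.2 and 38.3 CPM in the ZsGpos libraries and 184.5, 183.7 and 171.3 CPM in the WT units (log2 -2.13, SE 0.29, adjusted p = 0.0071). Hspb11, a subunit of the intraflagellar transport complex also named Ift25 (chromosome 4, 107253593 to 107284497), had 41.4, 68.7, 47.9 and 72.6 CPM in the ZsGpos libraries and 240.5, 268.6 and 291.3 CPM in the WT units (log2 -2.21, SE 0.261, adjusted p = 0.00222). Crip1, a small LIM protein, had 92.7, 139.4, 111.7 and 97.6 CPM in the ZsGpos libraries and 310.8, 275.1 and 362.5 CPM in the WT units (log2 -1.52, adjusted p = 0.0157), and Sh3bgrl3 191.97, 182.9, 207.1 and 141.5 CPM in the ZsGpos libraries and 347.99, 407.8 and 478.8 CPM in the WT units (log2 -1.19, adjusted p = 0.0228). Cadps, a factor for exocytosis of dense-core vesicles, had 143.9, 115.2, 158.98 and 150.2 CPM in the ZsGpos libraries and 354.5, 405.7 and 527.9 CPM in the WT units (log2 -1.6, adjusted p = 0.0278). For all 7 the lowest WT unit lay above the highest ZsGpos library. Actr2 and Nostrin each lost their call without WT 02 (adjusted p = 0.0642). Crip1 lost its call without ZsGpos 04, WT 01, WT 02 or WT 03 (adjusted p = 0.0525 to 0.123). Sh3bgrl3 lost its call without any 1 ZsGpos or WT unit other than ZsGpos 03 and WT 01 (adjusted p = 0.0571 to 0.178). Cadps lost its call without any 1 ZsGpos or WT unit (adjusted p = 0.0571 to 0.196).

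Lower calls included members of the lists of tissue antigens, where 0.254% of all tested genes were called lower. Of 58 tested gut antigens 4 were called, all lower (Lgals2, Reg3g, Tff3 and Cdx1), 54 had a negative log2 fold change and 34 had units that did not overlap downward (11.1% of all genes did), with a median of -1.97. The share of all genes was not matched for level. Each WT unit sums 3 libraries, whereas each ZsGpos unit is 1. The part of depth and level in these counts was not tested. Of 51 antigens of liver, airway and gland Cst9 was called lower, 39 were negative and 12 positive (median -1.03), and of 43 cornified envelope genes Sprr4 and Serpinb12 were called lower, 30 were negative and 13 positive (median -0.92). Lgals2, a galectin of the gut lining (chromosome 15, 78850860 to 78855529), had 20.9, 10.3, 18.9 and 25.8 CPM in the ZsGpos libraries and 160.3, 219.5 and 214.5 CPM in the WT units (log2 -3.38, SE 0.442, adjusted p = 0.00579). Reg3g, an antibacterial lectin, had 672, 622, 566.9 and 712 CPM in the ZsGpos libraries and 2121, 2917 and 2708 CPM in the WT units (log2 -2, adjusted p = 0.0191). Tff3, a trefoil peptide of goblet cells, had 18.6, 20.8, 18.9 and 13.1 CPM in the ZsGpos libraries and 138.8, 90.6 and 200.1 CPM in the WT units (log2 -3, adjusted p = 0.0234), and Cdx1, a homeobox factor of the intestine, 40.7, 60.5, 78.4 and 57.9 CPM in the ZsGpos libraries and 157.7, 227.7 and 213.5 CPM in the WT units (log2 -1.75, adjusted p = 0.0254). Agr2, a disulphide isomerase of goblet cells, narrowly missed a call with 0, 0, 0.0947 and 0 CPM in the ZsGpos libraries and 33.9, 27.9 and 38.4 CPM in the WT units (adjusted p = 0.0539). Resp18, an endocrine protein, had 18.1, 6.21, 54.3 and 40.7 CPM in the ZsGpos libraries and 281.3, 273.2 and 310.1 CPM in the WT units, and ZsGpos 02 was the lowest (log2 -3.27, adjusted p = 0.0157). It and the higher Stmn2 were the called members among 41 endocrine and neural antigens, of which 28 had a negative log2 fold change. Saa3, an acute-phase protein, had 47.7, 72.6, 54.6 and 71.5 CPM in the ZsGpos libraries and 279.4, 261.96 and 358.8 CPM in the WT units (log2 -2.28, adjusted p = 0.0289), and the skin chemokine Ccl27a 88.2, 104.4, 111.7 and 58.9 CPM in the ZsGpos libraries and 250.4, 249.3 and 253.1 CPM in the WT units (log2 -1.47, adjusted p = 0.0342). Serpinb12 of the cornified envelope list had 35.7, 9.09, 34.8 and 22 CPM in the ZsGpos libraries and 177.4, 166.02 and 144.96 CPM in the WT units (log2 -2.68, adjusted p = 0.0183). Reg3g lost its call without any 1 ZsGpos or WT unit other than WT 01 (adjusted p = 0.0583 to 0.109). Tff3 and Saa3 each lost their call without any 1 ZsGpos or WT unit (adjusted p = 0.0583 to 0.178). Cdx1 and Ccl27a each lost their call without any 1 ZsGpos or WT unit other than ZsGpos 03 (adjusted p = 0.0512 to 0.196). Resp18 lost its call without WT 02 or WT 03 (adjusted p = 0.0642 to 0.0715). Serpinb12 lost its call without ZsGpos 04, WT 01, WT 02 or WT 03 (adjusted p = 0.0684 to 0.102). With RLE size factors the call of Ccl27a was also lost (adjusted p = 0.0576).

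Dppa3, M1ap, Spock3 and Cnnm1 were lower and belong to no list. Dppa3, a maternal factor of oocytes and early embryos (chromosome 6, 122626424 to 122630271), had 52.9, 129.8, 53.8 and 35.4 CPM in the ZsGpos libraries and 483.2, 662 and 450.96 CPM in the WT units, and its WT libraries ran from 284.7 to 1247 CPM (log2 -2.97, SE 0.426, adjusted p = 0.00902). M1ap, which is needed in meiosis (chromosome 6, 82946908 to 83030309), had 0.17, 0.0758, 0.0947 and 0 CPM in the ZsGpos libraries and 17.5, 11.7 and 17.7 CPM in the WT units. The 4 ZsGpos libraries held 4 counts of it in all, and every WT library, at 3.61 to 23.9 CPM, lay above them (log2 -7.41, adjusted p = 0.0157). Spock3, a brain proteoglycan, had 43.6, 43.6, 52 and 61.7 CPM in the ZsGpos libraries and 225.02, 229.8 and 181.5 CPM in the WT units (log2 -2.08, adjusted p = 0.0138). The ZsGneg mean of Spock3, 61.97 CPM, was near that of ZsGpos, whereas that of M1ap, 24.04 CPM, was not. Cnnm1, a membrane protein of the brain and testis, had 22.6, 28, 57.3 and 29.6 CPM in the ZsGpos libraries and 124.5, 115.7 and 134.5 CPM in the WT units (log2 -1.86, adjusted p = 0.0275). Dppa3 lost its call without WT 02 (adjusted p = 0.0642). M1ap and Spock3 each lost their call without WT 01, WT 02 or WT 03 (adjusted p = 0.0512 to 0.104). Cnnm1 lost its call without any 1 ZsGpos or WT unit other than ZsGpos 03 (adjusted p = 0.0698 to 0.178).

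Nuclear genes of the respiratory chain were called lower in 4 cases, Ndufb11, Ndufc2, Cox4i1 and Atp5l. Their log2 fold changes were -1.6, -1.19, -0.98 and -1.08 (adjusted p = 0.022, 0.0309, 0.0338 and 0.0254). Ndufb11, a complex I subunit encoded on the X chromosome, had 58.9, 45.2, 77.5 and 45.5 CPM in the ZsGpos libraries and 125.2, 217.3 and 175.1 CPM in the WT units. The families were assembled after values were seen, and 0.254% of all tested genes were called lower. Of complex I subunits 33 of 36 had a negative log2 fold change and 18 had units that did not overlap downward, against 11.1% of all genes (median -0.58), of complex III and IV subunits 21 of 24 and 15 (median -0.64), and of ATP synthase subunits 15 of 16 and 10 (median -0.67). Complex I subunits summed to 3796 to 4489 CPM in ZsGpos and 6039 to 7482 in WT. Ribosomal proteins of mitochondria held 2 called genes of 74 tested, Mrpl38 (241.6, 156.3, 196.7 and 201.7 CPM in the ZsGpos libraries and 380.6, 524.6 and 485.7 CPM in the WT units, log2 -1.22, adjusted p = 0.0172) and Mrpl13 (log2 -1.54, adjusted p = 0.031), and a median of -0.38. Cytosolic ribosomal proteins held 1 of 82, Rps14, with 705, 578.1, 606 and 583.9 CPM in the ZsGpos libraries and 1051, 1216 and 1367 CPM in the WT units (log2 -0.97, adjusted p = 0.0111), and a median of -0.2. With RLE size factors, which move the median of all genes from -0.05 to 0.02, these 5 family medians stayed negative, at -0.5, -0.57, -0.6, -0.31 and -0.12, and the calls of Ndufc2, Cox4i1 and Mrpl13 were lost (adjusted p = 0.0617, 0.0576 and 0.059). Ndufb11 and Atp5l each lost their call without any 1 ZsGpos or WT unit other than ZsGpos 03 and WT 01 (adjusted p = 0.0609 to 0.196). Ndufc2 lost its call without any 1 ZsGpos or WT unit other than ZsGpos 01 and WT 01 (adjusted p = 0.0664 to 0.234). Cox4i1 lost its call without any 1 ZsGpos or WT unit other than ZsGpos 03, or without ZsGneg 02 (adjusted p = 0.053 to 0.204). Mrpl38 lost its call without ZsGpos 04, WT 02 or WT 03 (adjusted p = 0.0514 to 0.13). Mrpl13 lost its call without any 1 ZsGpos or WT unit other than ZsGpos 04 (adjusted p = 0.0623 to 0.218). Rps14 lost its call without WT 02 or WT 03 (adjusted p = 0.0642 to 0.073).

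The remaining lower genes were housekeeping or less characterised. Nup85, a subunit of the nuclear pore, had 173.7, 184.4, 178.4 and 183.005 CPM in the ZsGpos libraries and 348.8, 412.8 and 419.7 CPM in the WT units (log2 -1.13, adjusted p = 0.0172), and Nsmce1, of a chromosome maintenance complex in DNA repair, 87, 138.1, 97.1 and 82.4 CPM in the ZsGpos libraries and 266.8, 290.7 and 249.5 CPM in the WT units (log2 -1.41, adjusted p = 0.0277). Atp6v0e of the proton pump of acid organelles had 184.2, 197.6, 247.3 and 220.8 CPM in the ZsGpos libraries and 395.2, 513.03 and 582.5 CPM in the WT units (log2 -1.23, adjusted p = 0.0195). S100a1, a calcium sensor, had 126.9, 169.1, 109.5 and 105.7 CPM in the ZsGpos libraries and 243.6, 322.1 and 335.2 CPM in the WT units (log2 -1.23, adjusted p = 0.0278). Serpinb6a, a protease inhibitor, had 39.9, 28.5, 90.7 and 61.7 CPM in the ZsGpos libraries and 226.7, 219.7 and 218.6 CPM in the WT units, with the WT units nearly equal (log2 -2.01, adjusted p = 0.0278). Selk, Akr1a1, Ywhae, Rbx1, Txn1, Ppib and the pseudogene Gm10123 had adjusted p values between 0.0278 and 0.041 and means 1.84-fold to 2.28-fold lower. All 7 of these calls were lost with RLE size factors (adjusted p = 0.0501 to 0.0697). Nup85 lost its call without WT 02 or WT 03 (adjusted p = 0.118 to 0.123). Nsmce1 and S100a1 each lost their call without any 1 ZsGpos or WT unit other than ZsGpos 02 (adjusted p = 0.0536 to 0.2). Atp6v0e lost its call without any 1 ZsGpos or WT unit other than ZsGpos 03 and WT 01 (adjusted p = 0.0596 to 0.162). Serpinb6a lost its call without any 1 ZsGpos or WT unit other than ZsGpos 03 (adjusted p = 0.0695 to 0.136). Selk and Gm10123 each lost their call without any 1 ZsGpos or WT unit (adjusted p = 0.0508 to 0.236). Akr1a1 lost its call without any 1 ZsGpos or WT unit other than ZsGpos 04 (adjusted p = 0.0583 to 0.181). Ywhae lost its call without any 1 ZsGpos or WT unit other than ZsGpos 01, or without ZsGneg 03 (adjusted p = 0.0506 to 0.196). Rbx1 lost its call without any 1 ZsGpos or WT unit other than ZsGpos 03, or without ZsGneg 02 (adjusted p = 0.0502 to 0.265). Txn1 lost its call without any 1 ZsGpos or WT unit, or without ZsGneg 02 (adjusted p = 0.0577 to 0.216). Ppib lost its call without any 1 ZsGpos or WT unit other than ZsGpos 03, or without ZsGneg 02 or ZsGneg 03 (adjusted p = 0.0505 to 0.275).

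**Figure D3:**
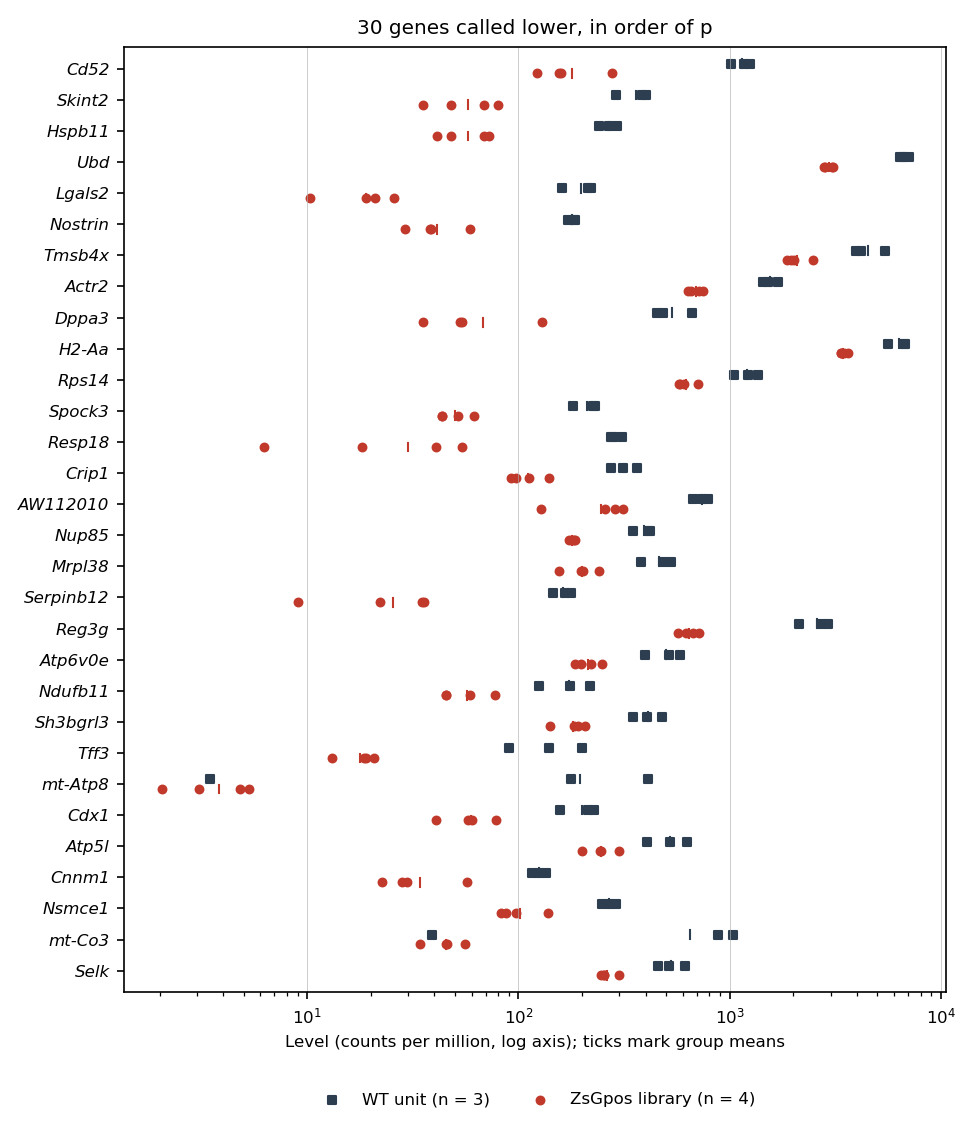
Level of the 30 lower genes with the smallest p, after leaving out Cst9, M1ap and Sprr4 (at or near 0 in ZsGpos), in CPM on a log axis; squares are the 3 WT units, circles the 4 ZsGpos libraries and ticks the group means. WT 01 lies among the ZsGpos libraries for mt-Atp8 and mt-Co3, and for the other 28 genes the groups do not overlap.

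Summing the WT libraries hid unequal levels in 4 of the calls, singled out after their values were seen. mt-Co3, a mitochondrially encoded subunit of complex IV, had 29.6 to 58.04 CPM in 7 of the 9 WT libraries, 3069 CPM in WT 02 R01 and 2702 CPM in WT 03 R03, against 45.5, 34.3, 56.1 and 45.9 CPM in ZsGpos. The neighbouring gene mt-Atp8 had 2.32 to 4.38 CPM in the same 7 libraries and 529.7 and 1298 CPM in the other 2, against 5.28, 2.05, 4.83 and 3.07 CPM in ZsGpos. Without those 2 libraries in the sums the log2 fold changes turned from -3.84 to 0.2 and from -5.69 to 0.19, with adjusted p = 1 for both, so that each call rested on 2 of 9 libraries. With the 9 libraries entered singly both calls were lost. That fit made 4.22 times as many calls, 70 of the 72 among them. Cst9, a cystatin, had 2 counts in all of ZsGpos and 4177 in WT, a ratio of 838 (95% exact counting interval 231.96 to 6925), but WT libraries ran from 0.0926 to 102.2 CPM. Sprr4, of the cornified envelope, had no count in ZsGpos and 1184 in WT, so it was at least 158.4-fold lower against a floor of 3 counts over the ZsGpos group, yet it was also at 0 in WT 01 R01 and WT 03 R03. Amplified reads are not independent molecules, so the interval and the floor describe counting error alone. Cst9 lost its call without any 1 ZsGpos or WT unit other than ZsGpos 03 and WT 01 (adjusted p = 0.0531 to 0.102). Sprr4 lost its call without any 1 ZsGpos or WT unit, or without any 1 ZsGneg library (adjusted p = 0.0525 to 0.167). mt-Co3 and mt-Atp8 each lost their call without any 1 ZsGpos or WT unit other than WT 01 (adjusted p = 0.0623 to 0.249).

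**Figure D4:**
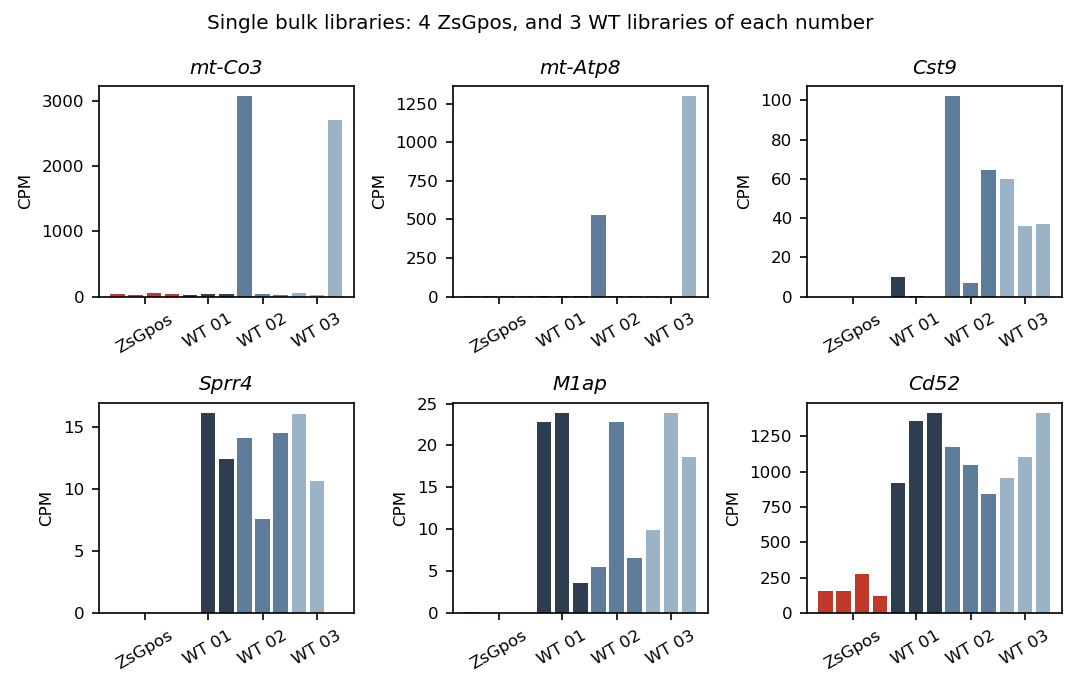
CPM of 6 lower genes in each of the 4 ZsGpos libraries and the 9 WT libraries, grouped by WT number, on linear axes from 0. mt-Co3 and mt-Atp8 are high in 2 WT libraries only, Cst9 and Sprr4 are uneven over the 9, and Cd52 lies between 842 and 1417 CPM in all of them.

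The lists of PRC2 subunits and of mTEC maturation held no call. Only 0.38% of all tested genes were called, so lists of this size without a call cannot be told apart from that share. None of 6 core or 3 accessory PRC2 subunits, 19 PRC1 subunits, 7 CDK inhibitors or 21 HOX genes passed, with list medians of 0.04, 0.02, 0.26, 0.14 and 0.77. Ezh2, the main methyltransferase of PRC2, had 49.4, 90.9, 50.1 and 76.8 CPM in the ZsGpos libraries and 87, 62.2 and 84.8 CPM in the WT units (log2 -0.22, adjusted p = 1). Cdkn1a, a CDK inhibitor induced by p53, had 178.2 ± 45.8 against 100.4 ± 12.6 CPM (SD, 4 ZsGpos libraries against 3 WT units), without overlap or call (log2 0.83, adjusted p = 0.547). Cdkn2b overlapped (log2 0.04, adjusted p = 1). Among 56 developmental transcription factors Cdx1 alone was called, 10 had units that did not overlap upward (4.78% of all genes did) and 2 downward (11.1%). Prrx1, a mesenchymal homeobox factor, had 94.2, 119.5, 119.9 and 23.6 CPM in the ZsGpos libraries and 0.518, 0.159 and 2.43 CPM in the WT units (log2 6.42, adjusted p = 0.0926), and En2, an engrailed factor, 1.28, 2.58, 0.284 and 5.58 CPM in the ZsGpos libraries and 0.0288, 0.0266 and 0 CPM in the WT units (log2 6.62, adjusted p = 0.367). These are large differences without a call. Of 18 mTEC maturation genes none was called (median -0.12), and Fezf2 had 279.7, 406.2, 391.7 and 431.3 CPM in the ZsGpos libraries and 519.3, 568.02 and 495.95 CPM in the WT units (log2 -0.48, adjusted p = 0.434). Krt8, a simple epithelial keratin, had 391.6, 426.4, 587.1 and 485.9 CPM in the ZsGpos libraries and 709, 854 and 847 CPM in the WT units (log2 -0.76, adjusted p = 0.133), whereas Krt7 had 207.03, 186.04, 246.7 and 206.3 CPM in the ZsGpos libraries and 86.3, 94.2 and 102.3 CPM in the WT units (log2 1.17, adjusted p = 0.112). Interferon response genes (34 tested, 27 positive) and Notch genes (22 tested, Hes1 called) had medians of 0.47 and 0.79.

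Markers of other cell types moved with the groups in part. Thymocyte markers summed to 116.8 to 341.7 CPM in ZsGpos and 48.6 to 90.5 in WT, 13 of 14 tested had a positive log2 fold change and none was called. Cd8b1 had 1.36, 7.5, 67.2 and 30.5 CPM in the ZsGpos libraries and 0.259, 0.691 and 8.5 CPM in the WT units, and Rag1 0, 13.2, 27.6 and 18.4 CPM in the ZsGpos libraries and 2.19, 1.09 and 0.934 CPM in the WT units, so both were low in ZsGpos 01. Erythroid markers summed to 4.68 to 18.7 CPM in ZsGpos and 51.7 to 155.98 in WT. B cell markers (9 tested), myeloid and dendritic markers (11) and endothelial markers (6) overlapped in their sums, with 1 group's range reaching into the other's, and none was called. The cortical gene Psmb11 had at most 13 CPM. The part of these cell types in the calls was not tested.

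**Figure D5:**
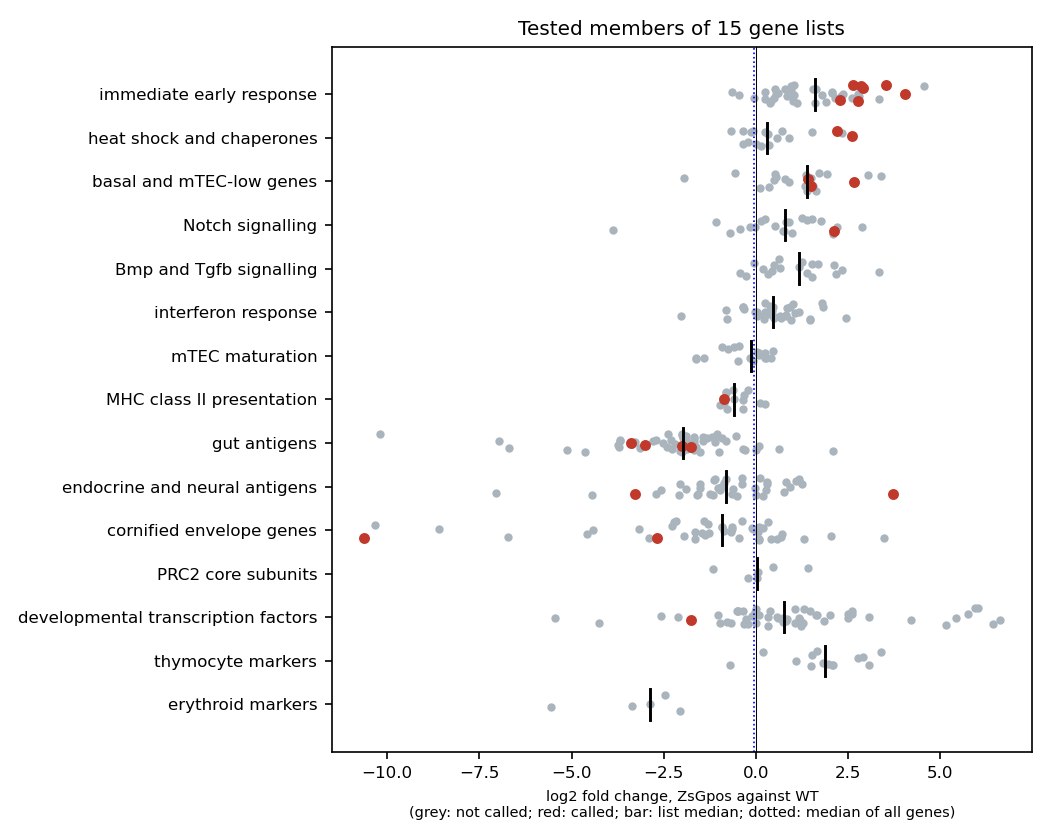
Log2 fold change of each tested member of 15 gene lists, ZsGpos against WT; red points are called genes, black bars list medians and the dotted line the median of all genes (-0.05). Immediate early genes lie mostly to the right (median 1.61) and gut antigens mostly to the left (median -1.97).

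ZsGneg cells share the fit and their comparison with WT shares the WT units, so their levels are given beside the others only as values. Fos had a mean of 258.6 CPM in ZsGneg, between 676 CPM in ZsGpos and 40.7 in WT, and Krt5 308.5 CPM, likewise between them. The other called basal genes were near ZsGpos, Krt14 with a ZsGneg mean of 300.5 CPM against 310.7 in ZsGpos and 110.2 in WT, and Ly6a with 428.5 against 491.96 and 185.9 CPM. Cd52 had 1044 CPM, H2-Aa 8500 CPM and Ubd 8650 CPM in ZsGneg, near or above WT. Igf1 had 321.8 CPM and Stmn2 14.3 CPM, near WT, and Clu 733 CPM, near ZsGpos.

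Small pools of 100 cells and single cells of the same sorts give other libraries in which to look at the 72 genes, as a description without a test. Pools of plate SCGC1373 were shallow, with 68939 to 180374 gene counts in 3 ZsGpos wells and 10332 to 50262 in 3 WT wells. Of the higher genes 19 had at least 10 counts there, and 14 of them had a higher mean in ZsGpos, 6 without overlap of wells, against 8.31% of the 3948 genes seen at that depth. Of the lower genes 41 had enough counts, 24 had a lower mean and 7 did not overlap, against 7.29% for all. Since 2196 of the 3948 genes had a lower mean, the 24 of 41 are near the background. Ly6a had 2434, 2598 and 1828 CPM in the ZsGpos wells and 463.4, 483.9 and 119.4 in the WT wells. Tff3 had no count in the ZsGpos wells and 213.9, 193.6 and 59.7 CPM in WT. Of the other called gut antigens, Reg3g had a higher mean in the ZsGpos wells (5797 against 3078 CPM). Cdx1 had a lower one (36.8 against 66 CPM), and the wells overlapped for both. Actr2, Atp6v0e and Ppib, lower in bulk, were higher in the pools without overlap. Of the class II genes, Cd74 had a mean of 32548 CPM in ZsGpos and 15089 in WT, with overlap. H2-Aa (24173 against 23952 CPM) and H2-Ab1 (12313 against 12109 CPM) were nearly equal. Ciita was lower (44.5 against 78.7 CPM), with overlap.

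Single cells with at least 50000 gene counts and 1000 genes were summed by plate: 53, 73 and 89 ZsGpos cells and 48, 51 and 110 WT cells on plates SCGC1373, SCGC1379 and SCGC1380, in that order. Plate SCGC1381, with 2 ZsGpos cells, was left out. On all 3 plates ZsGpos was higher for 9 of the 24 higher genes (12.9% of 18484 genes were) and lower for 17 of the 48 lower genes (13.8%). Stmn2 had 117.4, 92.7 and 154.6 CPM in ZsGpos and 20.1, 8.07 and 9.39 in WT on these plates. Igf1 had 458.03, 513.4 and 699 CPM against 148.3, 153.9 and 241.5, and Clu 1628, 2618 and 2049 against 607, 419.5 and 727. These 3 genes were far apart on every plate. Skint2 had 105.7, 233.7 and 221.96 CPM against 184.1, 635 and 493.5, and Cd52 160.4, 247.04 and 162.7 against 196.3, 491.98 and 375.6. Tff3 had 107.7, 67.2 and 231.4 CPM in ZsGpos against 31.6, 173.9 and 88 in WT, so it went both ways. Reg3g and Lgals2 went both ways too, and Cdx1 was lower in ZsGpos on all 3 plates. Of the called immediate early genes Dusp1, Btg2 and Zfp36l1 were higher on all 3 plates, and Fos, Egr1, Jun and Klf4 were not. Fos had 989, 121.4 and 87.5 CPM in ZsGpos against 27.8, 124.2 and 121.3 in WT, so that the difference lay on plate SCGC1373. Krt5 on that plate stood the other way, at 801 against 2011 CPM, and was higher in ZsGpos on the other 2. The same held for Krt14 (887 against 1103 CPM on that plate), Lifr, Mgp, Twsg1, Fstl1 and 4631405K08Rik. Hspa1a and Hspa1b were higher in ZsGpos on plate SCGC1373 and lower on the other 2. mt-Co3 and Ppib were higher in ZsGpos on all 3 plates, opposite to their bulk calls. Ppib had 208.2, 265.3 and 219.97 CPM in ZsGpos against 203.1, 252.7 and 199.9 in WT, a small step on each plate. Among regulators without a bulk call, Eed had 11.2, 36.4 and 14.6 CPM in ZsGpos against 40.3, 45.7 and 29.8 in WT. Ezh2 and Fezf2 were likewise lower in ZsGpos on all 3 plates. Cdkn1a was higher on all 3, at 623, 213.5 and 290 against 75.6, 137.7 and 96.3 CPM. Aire, Suz12, Jarid2 and Cdkn2b went both ways. Of the class II genes H2-Aa was lower in ZsGpos on all 3 plates. Cd74 and H2-Ab1 were higher on 2 plates and lower on 1, and Ciita was higher on 1 and lower on 2.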

How the data were processed

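Counts of reads per gene were deposited by the authors as 1 table, with 45317 gene rows, 92 spike-in rows and 5 rows of unassigned reads. Per the submitters' processing notes the genome build was mm10 and the tools include Trimmomatic, HISAT 0.1.6 and HTSeq. No source used here gives the strand setting or annotation, so overlapping and antisense genes cannot be told apart. Unassigned reads and spike-ins stayed out of library sizes; reads outside genes were 18.9 to 35.9% of listed reads in the 17 bulk libraries. Of the 2319 columns 1065 were used, in bulk libraries, 12 small pools and single cells.

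WT libraries were summed by number. All 3 groups (11 units) entered 1 fit in edgeR 4.0.16 with filterByExpr, TMM scaling and the quasi-likelihood test, and p-values were adjusted by Benjamini-Hochberg over 18931 genes, with a threshold of 0.05. The SE is the log2 fold change divided by the square root of its F statistic. Levels in CPM were computed from the counts. The members and gene lists were chosen with earlier results of these data known. Named genes are the called genes, for each list its called members and up to 4 tested members with the largest absolute log2 fold change, and a fixed set of regulators and markers; others are named as chosen after their values were seen. Units overlap unless every ZsGpos library lies above, or below, every WT unit. RefSeq coordinates matched 70 of the 72 called genes. Alternatives were other scaling, filters, tools, covariates, groups and left-out units, with DESeq2 1.42.0 among them.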

Additional observations from a re-analysis of the deposited data

Results flagged for a closer look

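In 4 of the 72 called genes 1 ZsGpos library stood far from the other 3, by the gap to its nearest neighbour over the whole range. Chance flags about 1 in 20 such groups. For Egr1 the low library was ZsGpos 01, at 225.6 CPM. For Cst9 ZsGpos 02 alone had any count, at 0.152 CPM. Selk was highest in ZsGpos 01, at 297.8 CPM, and Ywhae also, at 672 CPM.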

How the results depend on the processing

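Counts of calls are given as multiples of the 72 calls (24 higher, 48 lower), for all, higher and lower genes in that order. They were 3.99, 2.88 and 4.54 without a filter on low counts, 9.36, 10.4 and 8.83 with DESeq2, 4.22, 4.42 and 4.13 with the 9 WT libraries entered singly, and 1.78, 1.71 and 1.81 with robust dispersion. With only ZsGpos and WT in the fit they were 1.65, 2.63 and 1.17, which is 63 higher and 56 lower genes, and 59 of the 72 calls were kept. With the outside-gene share as covariate they were 0.0972, 0.167 and 0.0625, and with the mitochondrial share 0.0278, 0.0417 and 0.0208. The higher share of calls was 33.3% and became 52.9%, 57.1% and 50% in these last 3 fits. Leaving out 1 of the 11 units gave 0.125 to 1.29, 0.125 to 1.42 and 0.125 to 1.23. The cause was not tested.

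RLE size factors gave 63 calls, 60 of them among the 72. They moved 2 list medians by more than the spread over ZsGpos libraries, MHC class I and immunoproteasome from 0.03 to 0.101 and actin dynamics from -0.27 to -0.19. The median of all genes moved by a like amount, from -0.05 to 0.02, so the shift is not particular to these lists. With WT 02 R01 and WT 03 R03 out of the sums, chosen after seeing the data, 75 genes were called, and mt-Atp8 (0.187) and mt-Co3 (0.197) changed sign on the log2 scale. With the replicate block 57 genes were called (22 higher, 35 lower), 42 of them among the 72, and 30 of the 72 calls were lost. Deviations of ZsGpos and WT units of the same number correlated at -0.0208, -0.00127 and -0.00168, and those of different numbers at -0.0145 to 0.0183. Those of ZsGpos and ZsGneg correlated at 0.00402 to 0.0181 for the same number and -0.0184 to 0.0143 for different ones, so the block was not taken as a pairing in either case.

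In the small pools of plate SCGC1373, 14 of 19 higher and 24 of 41 lower genes, 38 in all, had the bulk direction. Over all wells 23 of 23 and 39 of 44 had it, 62 in all. Plates differ between groups there, and 1 ZsGpos well held 68 gene counts. That well had no count of most called genes, which lowers their ZsGpos means and favours the lower direction. Krt5 had 14706 CPM in it, against at most 1081 CPM in the other ZsGpos wells. The share of all genes was not computed over all wells, so the 62 has no background. Without a cell filter 29 genes had the bulk direction on 3 of 3 single-cell plates, against 26. Depth limits the pools: in the WT well with 10332 gene counts a single count is 96.8 CPM.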

Other observations

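Values of 4 further lists are given beside the share of all genes whose units did not overlap, 4.78% upward and 11.1% downward. Of 13 tested ciliated cell genes none was called, 9 had a negative log2 fold change and 7 had units that did not overlap downward, with a median of -2.47. Of 14 muscle genes none was called, 11 were negative and 4 did not overlap downward (median -0.88). Among 25 p53 targets Btg2 was called, 20 were positive, 8 did not overlap upward and 1 did not overlap downward (median 0.49). Of 19 genes of Bmp and Tgfb signalling none was called, 16 were positive, and 1 did not overlap in each direction (median 1.16). Fst, an inhibitor of activin, had 34.8, 19.6, 37.4 and 26.97 CPM in ZsGpos and 6.53, 3.67 and 7.41 CPM in WT, without a call (adjusted p = 0.3003 in edgeR).

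The median RefSeq span was 3751 bases for the higher and 7274 for the lower called genes, against 20618 over the 17542 tested genes with a span. Of the called genes with a span, 5 of 24 higher and 15 of 46 lower genes lay above that last median. The difference was not tested.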
